A study of Mus musculus with 8 samples.

Results

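The genes described here encode the constitutive proteasome, its regulators and its assembly factors. They were chosen by name, as every listed gene whose symbol starts with Psma to Psmg followed by a digit, leaving out the immunoproteasome subunits Psmb8, Psmb9 and Psmb10 and pseudogenes, and numbered 46 of the 14608 genes in the table. By role they were 8 genes of the core alpha ring, 7 of the core beta ring, 6 base ATPases, 3 other base subunits, 8 lid subunits, 7 assembly chaperones, 4 activators and 1 inhibitor. Another 2 only share the naming pattern: Psmc3ip encodes a meiotic recombination factor (HOP2), and Psme2b is a near copy of the activator gene Psme2. Levels were measured by RNA-seq in undifferentiated spermatogonia (A_undiff), the germ cell population that holds the stem cells of the testis, sorted from adult C57BL/6J wild-type mice of 6 to 8 weeks as E-cadherin+, CD49f+ (α6-integrin) and c-KIT- cells. The 4 libraries called CTRL came from untreated mice. The 4 libraries called BU came from mice at D10 after 1 dose of busulfan at 10 mg/kg, an alkylating agent that kills most spermatogonia, and the comparison addressed what changes in the A_undiff that survive and start to rebuild the germline. Libraries are named by their columns, CTRL 1 to 4 and BU 2 to 5, and values are given in that order.

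The proteasome degrades proteins that carry ubiquitin chains. Its core particle is a barrel of stacked alpha and beta rings with the protease sites of PSMB5, PSMB6 and PSMB7 inside, and its regulatory particle, made of a base and a lid, binds ubiquitin chains, removes them, unfolds the substrate and feeds it into the barrel. Other caps, the activators encoded by Psme1 to Psme4, open the barrel without handling ubiquitin. In male germ cells that enter meiosis PSMA8 takes the place of PSMA7 in the core, and interferon exchanges the protease subunits for those of the immunoproteasome.

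The CTRL libraries held 18152779 to 23875108 counts in all and the BU libraries 17181963 to 24243985, and the 46 genes together took 0.275% to 0.309% of them. BU 3 stood apart from the other BU libraries in raw counts, with a chi-square per degree of freedom of 31.2 to 36.3 against 8.34 to 12.4 among the others. Correlations of log2 levels set it apart less, at 0.974 to 0.981 with BU 3 and 0.980 to 0.983 among the others. Summed levels of the undifferentiated markers Zbtb16, Sall4, Ddx4, Foxo1, Gfra1, Cdh1, Itga6 and Lin28a were 1309 to 1406 CPM (counts scaled to a common library size) in CTRL and 940.1 to 1078 CPM in BU. The markers did not move together: 2 rose (Gfra1 and Itga6), 5 fell and Cdh1 did not pass. Markers of differentiating spermatogonia (Kit, Stra8, Dmrtb1, Sohlh1 and Sohlh2) summed to 109 to 129 CPM and 199.7 to 255 CPM, and 4 of 5 rose. Of the 8 immune markers Ptprc, Cd74, H2-Aa and Mrc1 were listed and all 4 rose, from a sum of 8.32 to 15.4 CPM to one of 22.2 to 33.5 CPM. Sertoli markers (4 of 5 listed) summed to 14.0 to 19.8 CPM and 16.7 to 23.3 CPM, and 2 rose. Stromal and endothelial markers (4 of 5 listed) summed to 61.0 to 66.0 CPM and 49.1 to 57.7 CPM, with 2 that rose and 1 that fell. The 6 spermatid markers summed to 92.0 to 161 CPM and 97.7 to 159 CPM. The part of these shifts in the values below was not tested. In bulk samples fewer cells of a type and less RNA per cell cannot be told apart.

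Most proteasome genes had small fold changes in regenerative A_undiff, and the changes that passed the test were small and went in both directions. With limma-voom at an adjusted p under 0.05, 8 of the 46 genes rose in BU (17.4%, against 15.2% of all genes tested) and 7 fell (15.2%, against 16.9%). These shares lie near the background. At this threshold with a fold change over 1.5, 1 gene was higher (2.17%, against 6.8% of all genes) and 1 was lower (2.17%, against 6.54%). They were Psmc3ip and Psme2b, so none of the 44 genes of the particle, its chaperones and regulators passed (edgeR 0, DESeq2 0). At an unadjusted p under 0.05, 10 of the 44 were higher and 8 lower. The share of all genes at that threshold was not counted, so these numbers have no background. The CTRL and BU libraries did not overlap for 8 genes that were higher in BU (17.4%, against 14.5%) and for 7 that were lower (15.2%, against 15.9%). With scaling by library totals alone the split was 5 higher and 7 lower. The log2 fold change, BU minus CTRL, was under 0.2 in size for 29 of the 46, and the 95% interval lay within a 1.5-fold change either way for 40.

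**Figure D1:**
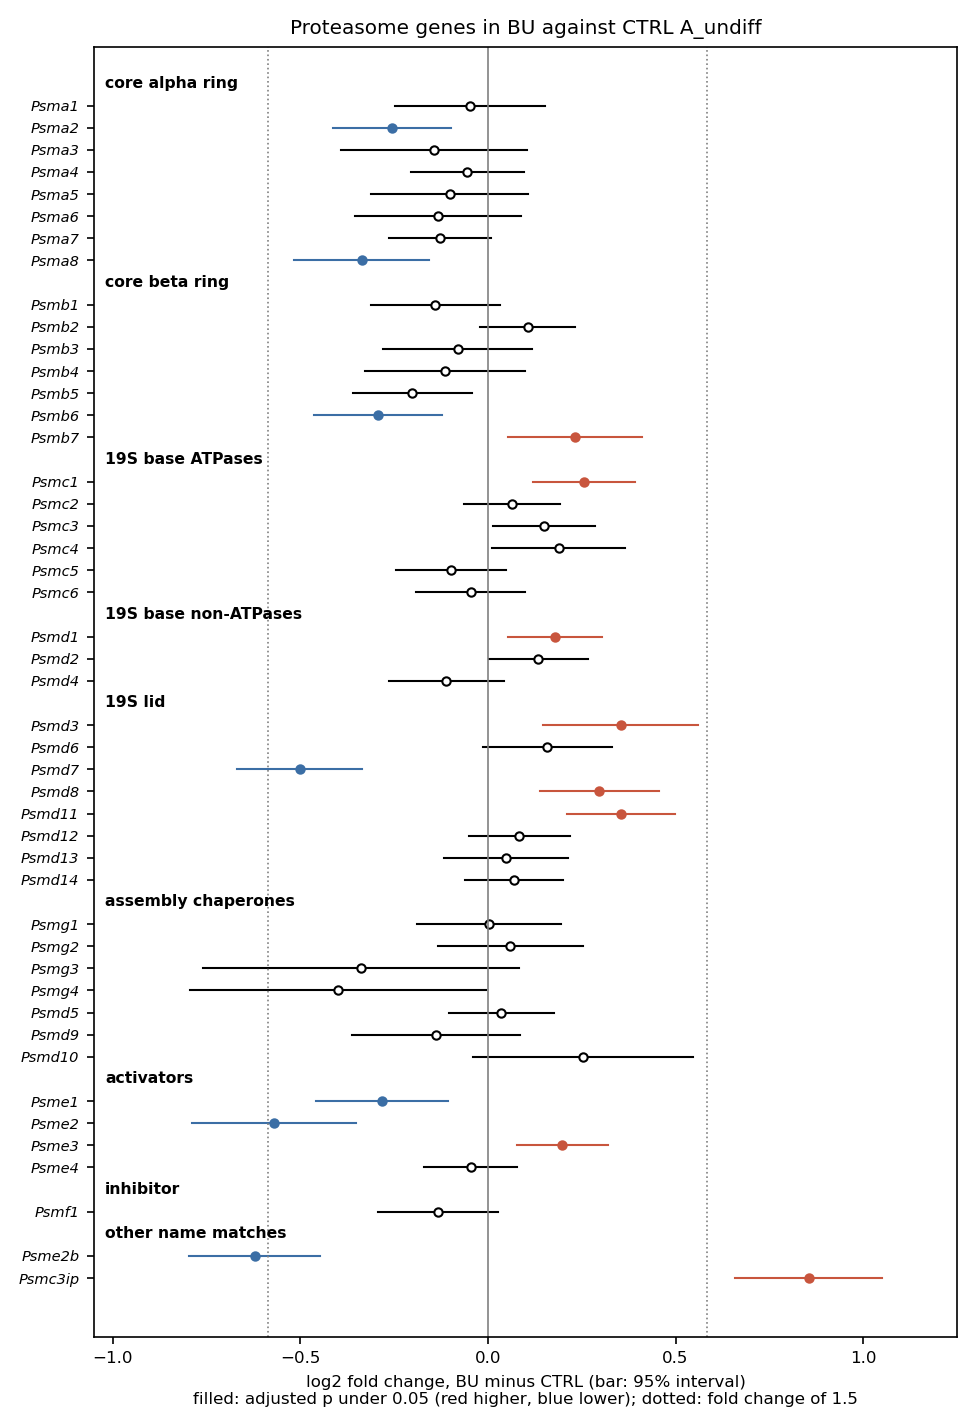
Log2 fold change of each of the 46 genes, BU minus CTRL, by role, with the 95% interval as a bar. Filled points passed an adjusted p under 0.05 (red 8 higher, blue 7 lower), open points did not, and the dotted lines mark a fold change of 1.5, which only Psmc3ip and Psme2b pass.

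Levels between genes were compared as TPM, the count per base of gene length rescaled so that all libraries have the same sum. In CTRL 43 of the 46 genes lay above the median of the listed genes (6.23 TPM), and only Psma3, Psmd9 and Psmg3 lay below it. On this scale subunits that occur once per ring differed widely in mRNA level. The listed lengths enter the spread: Psma3 has 3894 bases and Psma6 1234, and their CTRL means were 15.1 and 70.7 CPM. Mean levels in the alpha ring ran from 6.04 TPM for Psma3 to 89.7 TPM for Psma6, and in the beta ring from 15.1 TPM for Psmb3 to 140.5 TPM for Psmb2, the highest of the 46. The base ATPases were the most even of the larger groups, from 22.6 TPM for Psmc4 to 101.5 TPM for Psmc5, while the lid ran from 6.42 TPM for Psmd3 to 88.8 TPM for Psmd12. Chaperone genes lay lower, with Psmg3 at 2.17 TPM and Psmg2 at 44.4 TPM as their limits. Some levels are uncertain because reads may be shared with copies: 23.7% of the 100-base stretches of Psma5 transcripts, 13.4% of those of Psma3 and 22.2% of those of Psmb5 also occur in transcripts of other genes.

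**Figure D2:**
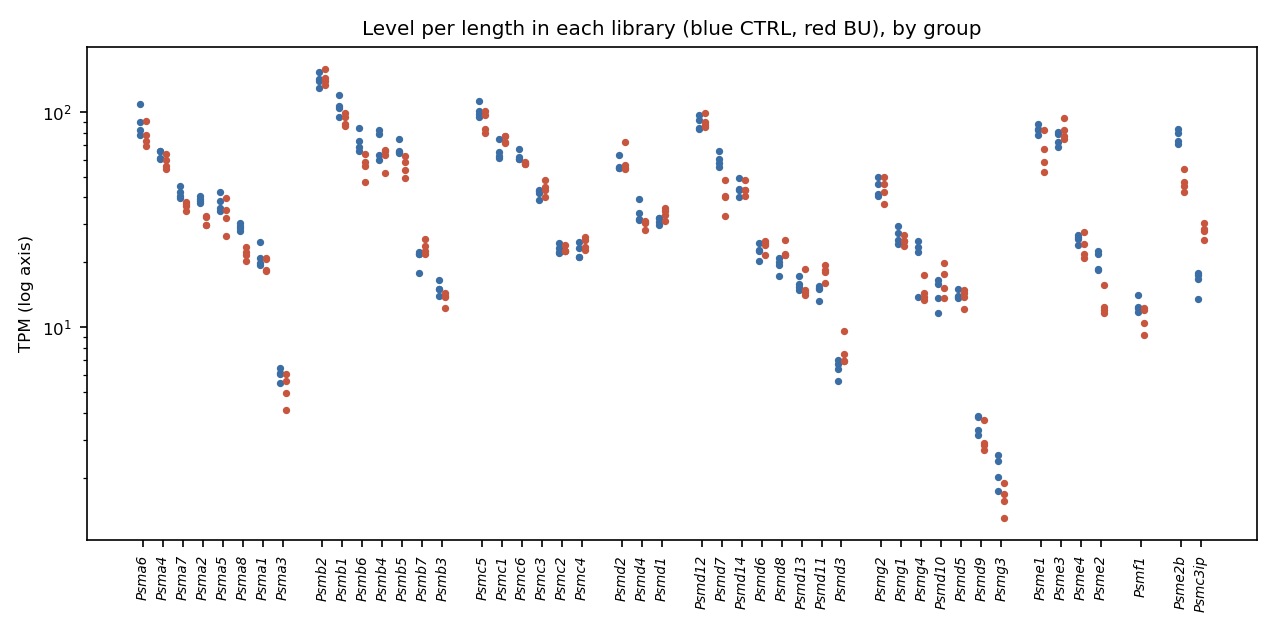
TPM of each gene in each library on a log axis (blue CTRL, red BU), ordered by CTRL mean within each group, from the alpha ring at the left to the genes that share only the name at the right. The spread between genes, from Psmg3 at 2.17 TPM to Psmb2 at 140.5 TPM in CTRL, is far wider than the shift between the groups of libraries.

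The core and the regulatory particle had medians of opposite sign, a description with no test of the difference. Of the 15 core genes, 13 had a log2 fold change below 0 and 2 above it, with a median of -0.13. Among them 3 fell (20%, against 16.9% of all genes) and 1 rose (6.67%, against 15.2%). Of the 17 regulatory particle genes, 13 were above 0 and 4 below it, with a median of 0.13. Among them 5 rose (29.4%, against 15.2% of all genes) and 1 fell (5.88%, against 16.9%). Over all genes 7192 were above 0 and 7416 below it, and the median was -0.01, with quartiles at -0.23 and 0.21. Both medians lie between these quartiles, but the quartiles are those of single genes. Medians of lists vary less than single genes, so their position there cannot show whether the medians are unusual. The summed level of the regulatory particle over that of the core, a ratio that does not depend on library scaling, was 0.892, 0.834, 0.846 and 0.893 in CTRL and 0.906, 0.998, 0.928 and 0.996 in BU (0.866 ± 0.031 and 0.957 ± 0.047, SD, n = 4 each). Each BU library lay above each CTRL library in this ratio.

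The libraries did not share the shift evenly. Averaged over the core genes, the log2 level relative to each gene's mean over all libraries was -0.01, 0.09, 0.12 and 0.03 in CTRL and 0.05, -0.14, 0.01 and -0.15 in BU. BU 3 and BU 5 were thus the low libraries for the core, each holding the lowest value of 6 of the 15 genes, while BU 2 and BU 4 lay within the CTRL range. For the regulatory particle the same average was -0.06, -0.06, -0.01 and -0.06 in CTRL and 0.09, 0.04, 0.04 and 0.03 in BU, without overlap. Leaving out BU 3 and BU 5 removes the libraries that were low for the core, so a core median nearer 0 follows from that choice. BU then keeps 2 libraries, and calls are harder to reach. The core median without them was -0.03, with 9 of 15 genes below 0 and none of the 3 falls called (1 core gene rose). The regulatory particle then had 13 of 17 genes above 0, a median of 0.11 and 5 rises. These were not quite the genes of the full comparison: Psmd1 lost its call and Psmd6 gained one, and Psmc6 moved above 0 and Psmd13 below it. Summed TPM of the core was 822 ± 66.1 in CTRL and 730.4 ± 27.7 in BU, and the libraries did not overlap. Its summed CPM, scaled by TMM factors, was 920 ± 39.4 and 861 ± 61.9, and there they did (877 to 966 and 801 to 928). Summed TPM of the regulatory particle was 711 ± 42.8 and 699 ± 37.6, while its summed CPM was 1273 ± 28.7 and 1353 ± 23.9, so its own direction depended on the scale.

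**Figure D3:**
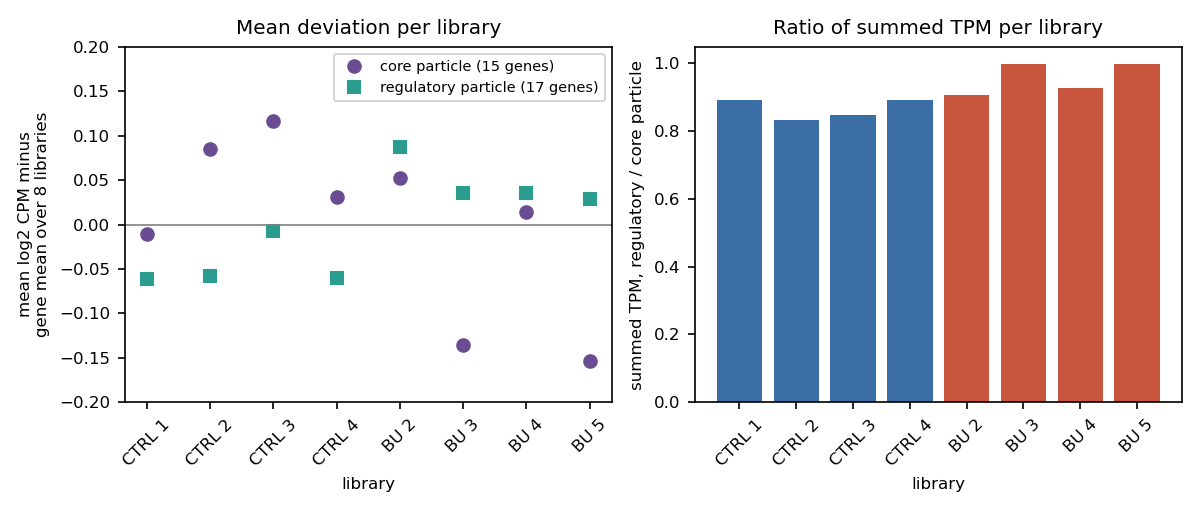
Left, mean log2 CPM of the 15 core genes (circles) and the 17 regulatory particle genes (squares) in each library, relative to each gene's mean over the 8 libraries. Right, summed TPM of the regulatory particle divided by that of the core in each library (blue CTRL, red BU), with the 4 BU bars at 0.906 to 0.998 above the 4 CTRL bars at 0.834 to 0.893.

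The alpha ring gates entry to the barrel. All 8 of its genes had a log2 fold change below 0, from -0.34 for Psma8 to -0.05 for Psma1, and Psma2 and Psma8 fell. Psma2 read 94.1, 90.4, 91.0 and 92.3 CPM in CTRL and 86.5, 66.8, 83.0 and 74.7 CPM in BU. Every BU library was below every CTRL library, with BU 3 the lowest, and the gene fell 1.19-fold (log2 fold change -0.26, SE 0.07, adjusted p = 0.014). Psma8, the meiotic alternative to Psma7, read 33.3, 32.7, 28.8 and 31.8 CPM in CTRL and 27.1, 24.3, 25.4 and 23.3 CPM in BU. The groups did not overlap, and the gene fell 1.26-fold (-0.34, SE 0.09, adjusted p = 0.0059). Its partner Psma7 did not pass (-0.13, SE 0.06, adjusted p = 0.14), and the level of Psma8 relative to Psma7 per length was 0.616 to 0.747 in CTRL and 0.588 to 0.618 in BU, with a narrow overlap. The 5 meiotic markers, Psma8 included, summed to 315 to 379.8 CPM in CTRL and 336 to 399 CPM in BU. Both falls lost the call without BU 3 and BU 5 together, and neither did in any fit that left out 1 library. The remaining 5, Psma1, Psma3, Psma4, Psma5 and Psma6, had log2 fold changes of -0.14 to -0.05.

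The beta ring holds the protease sites, and of its 3 catalytic genes 1 fell, 1 rose and 1 stayed short of the threshold. Psmb5 encodes the chymotrypsin-like subunit, the main target of proteasome inhibitors, and read 36.7, 36.6, 39.8 and 37.6 CPM in CTRL and 30.8, 33.3, 32.3 and 34.7 CPM in BU. All BU values lay below all CTRL values, yet the gene narrowly missed the threshold (-0.20, SE 0.08, adjusted p = 0.051) and passed it without BU 5 (adjusted p = 0.049) and with sample quality weights (0.045). Psmb6, the caspase-like subunit, read 79.6, 83.3, 95.6 and 89.1 CPM in CTRL and 78.7, 72.7, 72.5 and 60.3 CPM in BU. BU 5 was the lowest library and BU 2 came within 1 CPM of the lowest CTRL library, and the gene fell (-0.29, SE 0.08, adjusted p = 0.0099), a call lost without BU 3 and BU 5 together (adjusted p = 0.080). Psmb7, the trypsin-like subunit, read 39.6, 48.8, 46.4 and 49.0 CPM in CTRL and 53.3, 49.8, 60.6 and 52.4 CPM in BU. It rose (0.23, SE 0.08, adjusted p = 0.045) with a gap of under 1 CPM between the groups, and 11.8% of its exons overlap Nek6 on the opposite strand. The call was lost under 6 of 19 alternatives, among them leaving out CTRL 1, CTRL 3, BU 2, BU 4 or BU 5, with adjusted p of 0.056 to 0.150. The structural beta genes Psmb1, Psmb2, Psmb3 and Psmb4 ranged from -0.14 to 0.11 and none passed.

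Psmb10, which replaces Psmb7 in the immunoproteasome, read 41.5, 40.9, 43.4 and 41.6 CPM in CTRL and 19.4, 14.3, 13.2 and 12.9 CPM in BU and fell 2.84-fold (-1.51, SE 0.11, adjusted p = 1.8e-08). Its level relative to that of Psmb7 per length, a ratio chosen after the values were seen, was 1.68 to 2.11 in CTRL and 0.437 to 0.730 in BU. On this scale Psmb10 was the higher of the pair in every CTRL library and Psmb7 in every BU library. The order in CTRL depends on the listed lengths, 1705 bases for Psmb10 and 3421 for Psmb7. In CPM Psmb10 exceeded Psmb7 only in CTRL 1, and Psmb7 was the higher in all other libraries. Psmb9 was near 4 CPM in CTRL and did not pass (-0.54, SE 0.25, adjusted p = 0.11), and Psmb8 was not analysed here.

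In the base of the regulatory particle, the ring of ATPases unfolds substrates, PSMD1 and PSMD2 form its scaffold and PSMD4 is a ubiquitin receptor. Psmc1 read 76.5, 81.9, 88.3 and 78.3 CPM in CTRL and 99.1, 91.4, 97.5 and 101 CPM in BU. Each BU library exceeded each CTRL library, and the gene rose (0.26, SE 0.06, adjusted p = 0.0055). The other ATPases ranged from -0.10 for Psmc5 to 0.19 for Psmc4 and none passed. Psmd1 read 145, 140.4, 143 and 152 CPM in CTRL and 172, 155, 156 and 177 CPM in BU. The groups stood 2.16 CPM apart at their nearest, and Psmd1 rose (0.18, SE 0.06, adjusted p = 0.029). This call was lost under 7 of 19 alternatives, among them leaving out CTRL 1, CTRL 2, CTRL 3, BU 2 or BU 5, with adjusted p of 0.052 to 0.091. Neither Psmd2 (0.13, SE 0.06, adjusted p = 0.11) nor Psmd4 (-0.11, SE 0.07, adjusted p = 0.27) passed.

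The lid carries the enzyme that removes ubiquitin chains, PSMD14, and its partner PSMD7, and it held the largest changes of the particle in both directions. Psmd11, a scaffold subunit of the lid, read 64.4, 55.2, 58.6 and 63.4 CPM in CTRL and 73.5, 76.3, 79.4 and 79.9 CPM in BU. The lowest BU library was well above the highest CTRL library, and the gene rose 1.28-fold (0.35, SE 0.07, adjusted p = 0.00065). Psmd3, the least abundant lid mRNA, read 21.6, 20.6, 21.2 and 18.1 CPM in CTRL and 26.7, 29.1, 24.1 and 23.6 CPM in BU and likewise rose 1.28-fold without overlap (0.35, SE 0.10, adjusted p = 0.010). Psmd8 read 41.6, 38.8, 37.3 and 34.6 CPM in CTRL and 47.4, 47.3, 46.0 and 45.3 CPM in BU and rose 1.23-fold, also without overlap (0.30, SE 0.07, adjusted p = 0.0057). Psmd7 went the other way. It lies on chromosome 8 from 107580381 to 107588464 on the minus strand (GRCm38), and no exon of another gene overlaps it. Psmd7 read 81.0, 84.8, 90.7 and 89.6 CPM in CTRL and 65.6, 66.7, 51.5 and 61.5 CPM in BU. The highest BU library stayed below the lowest CTRL library by 14.3 CPM, BU 4 was the lowest, and the gene fell 1.42-fold (-0.50, SE 0.08, adjusted p = 0.00012). Its partner Psmd14 showed no such shift (0.07, SE 0.06, adjusted p = 0.42), and the difference between the partners was not tested. Psmd6, Psmd12 and Psmd13 had log2 fold changes of 0.05 to 0.16 and did not pass. Psmd7, Psmd8, Psmd11, Psmd3 and Psmc1 kept their calls under all 19 alternatives at an adjusted p under 0.05.

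**Figure D4:**
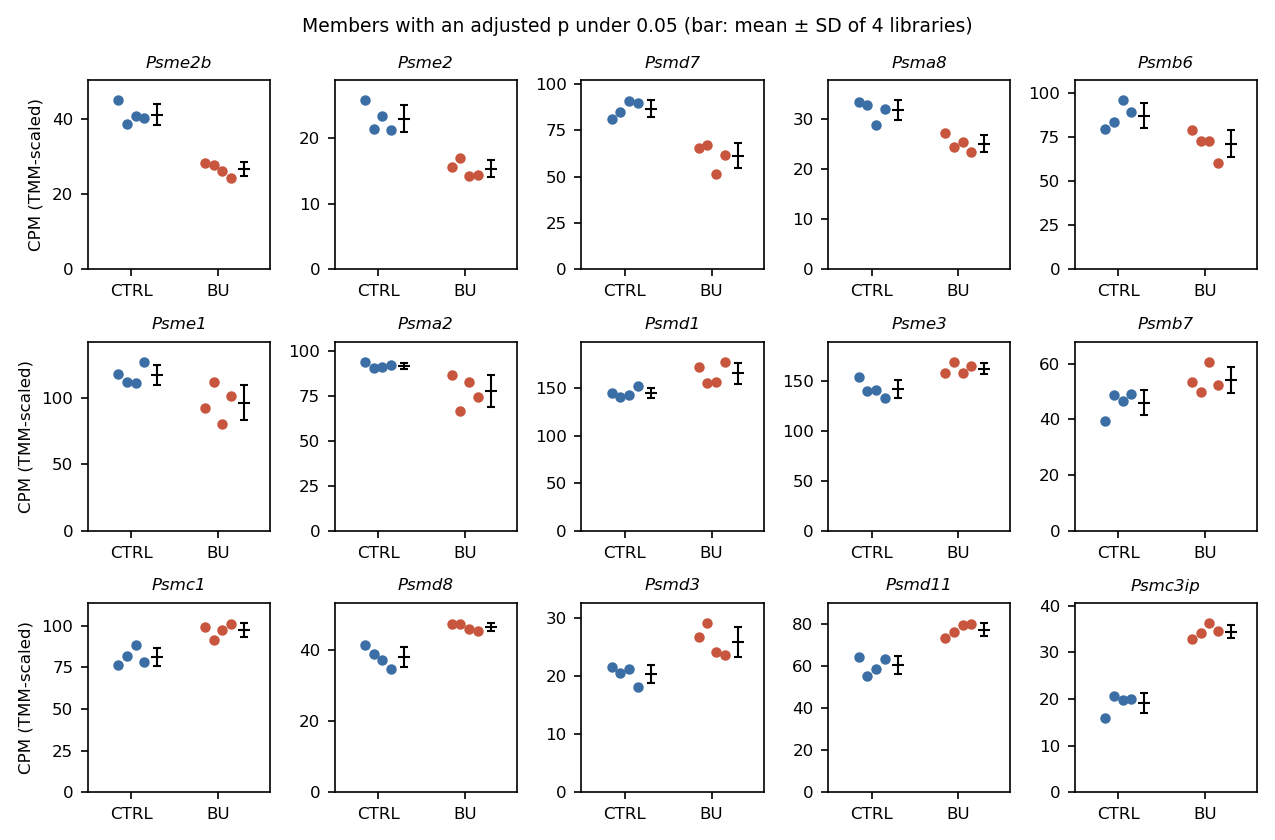
TMM-scaled CPM of the 15 genes with an adjusted p under 0.05 in each library (blue CTRL, red BU, each panel from 0, bar: mean ± SD, n = 4), ordered from the largest fall to the largest rise. The groups overlap only for Psme1.

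Promoters were inspected because most regulatory particle genes were above 0. Of the 46 genes, 38 had an entry in the RefSeq promoter table (GRCm38.p6, 250 bases before to 50 after a start site), and Psma8, Psmb1, Psmb2, Psmb7, Psmc3, Psmd3, Psmd7 and Psmg2 had none. Both strands were searched for CCGGAAG (an ETS factor site), TGACNNNGC (the antioxidant response element read by NFE2L1 and NFE2L2), CCAAT (bound by NF-Y), TTCCCGC (an E2F site) and CACGTG (an E-box), and for an interferon response element, which was added after the values were seen. The ETS letters were in 9 of 14 regulatory particle genes (64.3%) and 1 of 11 core genes (9.1%), against 20.1% of the 10050 listed genes with an entry and 8.9% of all 32851 promoters. Of these 9 regulatory particle genes only Psmc1 and Psmd11 were called, and Psmc6 (-0.05) and Psmd4 (-0.11) were below 0. Psmd1 and Psmd8 rose and have an entry without the letters. A link between the letters and the changes was not tested. CCAAT was in 6 of 11 core genes (54.5%) and 4 of 14 regulatory particle genes (28.6%), against 43.7% of listed genes and 37.4% of all promoters. The antioxidant element was in 6 of the 38 genes (15.8%, against 16.9% of listed genes and 12.4% of all promoters), the E2F letters in 5 (13.2%, against 10.1% and 4.6%) and the E-box in 3 (7.9%, against 12.1% and 7.2%). The 120 bases upstream of the start site are shown for a few genes of each kind, with every match in capitals. No 2 matches in them overlap. Psmd11, which rose, has the ETS letters 11 bases before its start (chr11:80428495-80428614, plus strand), Psmd2 has them 26 bases before (chr16:20651532-20651651, plus strand), and Psmc2 has them 84 bases before with CCAAT at 28 (chr5:21785155-21785274, plus strand). Another entry of Psmc2, not shown, has the ETS letters 24 bases before its start and the E2F letters 14 bases after it. Psmb5 (chr14:54617996-54618115, minus strand) and Psmb6 (chr11:70525237-70525356, plus strand) have the antioxidant element 47 and 9 bases before the start. For Psmc2 and Psmb6 the bases just after the start shown were not found in a GENCODE M21 transcript of the gene, so their distances are less certain. Psme3, which rose, holds the ETS letters, an E-box and CCAAT (chr11:101316093-101316212, plus strand). The interferon element was in 5 of the 38 genes (13.2%, against 3.4% of listed genes and 3.4% of all promoters), namely Psmb3, Psmd4, Psmd9, Psmg4 and Psme1, and of these Psme1 alone was called and fell. A match describes the letters only.
Psmd11: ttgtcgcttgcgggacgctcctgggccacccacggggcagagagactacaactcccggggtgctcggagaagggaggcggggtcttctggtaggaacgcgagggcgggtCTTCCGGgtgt
Psmd2: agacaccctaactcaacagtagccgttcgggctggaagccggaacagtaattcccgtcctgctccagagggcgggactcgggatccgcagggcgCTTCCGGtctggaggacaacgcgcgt
Psmc2: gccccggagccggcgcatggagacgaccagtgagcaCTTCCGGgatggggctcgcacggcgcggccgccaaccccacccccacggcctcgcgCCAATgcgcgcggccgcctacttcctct
Psmb5: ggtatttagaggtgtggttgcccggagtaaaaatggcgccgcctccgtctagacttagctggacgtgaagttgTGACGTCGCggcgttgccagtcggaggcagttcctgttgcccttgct
Psmb6: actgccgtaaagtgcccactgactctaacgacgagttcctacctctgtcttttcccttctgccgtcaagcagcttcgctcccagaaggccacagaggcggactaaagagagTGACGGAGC
Psme3: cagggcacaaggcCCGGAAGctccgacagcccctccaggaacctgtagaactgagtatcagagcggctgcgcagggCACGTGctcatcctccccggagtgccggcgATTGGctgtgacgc

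Assembly chaperones pair the subunits while rings and base are built. None of the 7 passed with limma-voom, edgeR or DESeq2, and their median was 0.00. At an unadjusted p under 0.05, 0 were higher and 1 was lower, again without a share of all genes beside it. Psmg1 and Psmg2, partners in alpha ring assembly, had log2 fold changes of 0.00 and 0.06. The other pair, Psmg3 and Psmg4, was weakly expressed and imprecise. Psmg4 read 8.03, 8.56, 8.48 and 4.99 CPM in CTRL and 5.47, 5.90, 5.16 and 5.41 CPM in BU (-0.40, SE 0.19, adjusted p = 0.12), and CTRL 4 stood with the BU libraries: without it the gene passed (adjusted p = 0.0087). Psmg3 was at -0.34, SE 0.20, adjusted p = 0.22, and these were the 2 genes without a call whose interval went past a 1.5-fold change. The base chaperones Psmd5, Psmd9 and Psmd10 ranged from -0.14 to 0.25, and reads of Psmd9 may include those of Gm26745, which overlaps 25.5% of its exons on the opposite strand.

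The activators split by kind. PSME1 and PSME2 form together the interferon-inducible cap that promotes peptide supply for MHC class I. Psme1 read 118, 112, 112 and 127 CPM in CTRL and 92.4, 112, 80.6 and 101 CPM in BU. BU 3 exceeded the lowest CTRL library, so the groups overlapped, and the gene fell (-0.28, SE 0.08, adjusted p = 0.015), a call lost without CTRL 4 (adjusted p = 0.062) and without BU 4 (0.061). Psme2 read 25.7, 21.4, 23.3 and 21.2 CPM in CTRL and 15.6, 17.0, 14.2 and 14.3 CPM in BU. No BU library reached the CTRL range, and Psme2 fell 1.49-fold (-0.57, SE 0.10, adjusted p = 0.00042), just short of the 1.5-fold threshold, which it passed without CTRL 2, CTRL 4 or BU 3 (1.51- to 1.55-fold). Both lie on chromosome 14, Psme1 from 55578123 to 55581529 on the plus strand and Psme2 from 55587441 to 55591113 on the minus strand (GRCm38). Psme2b, on chromosome 11 from 48945354 to 48946190, read 44.9, 38.5, 40.8 and 40.1 CPM in CTRL and 28.3, 27.8, 26.2 and 24.2 CPM in BU and fell 1.54-fold, again without overlap (-0.62, SE 0.08, adjusted p = 2.2e-05). Without CTRL 1 or BU 5 its fold change was under 1.5 (1.488 and 1.497). Of its 100-base stretches 52.0% also occur in Psme2 transcripts, and 18.4% of those of Psme2 occur in Psme2b, so reads may have been split between them and the level of each is uncertain. The fall of Psme1 and Psme2 went with higher summed immune markers in the same BU libraries, and the part of those cells was not tested.

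Psme3, which encodes the nuclear cap PA28-gamma, went up. It read 154, 139.6, 141 and 133 CPM in CTRL and 158, 169, 157 and 165 CPM in BU. The nearest libraries of the groups lay 3.67 CPM apart, and Psme3 rose 1.15-fold (0.20, SE 0.06, adjusted p = 0.014). The call was lost without CTRL 4 (adjusted p = 0.061), without BU 3 and BU 5 together (0.093) and with scaling by library totals (0.051). Psme4, which encodes the cap PA200 known in germ cells for degrading acetylated histones, read 142, 131, 137 and 141 CPM in CTRL and 126, 143, 127 and 138 CPM in BU. These groups overlapped and the gene did not pass (-0.05, SE 0.06, adjusted p = 0.59), and its 95% interval ran from 1.13-fold lower to 1.06-fold higher. Psmf1, an inhibitor of the core, did not pass either (-0.13, SE 0.08, adjusted p = 0.20).

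The largest change among the 46 was in the gene that is no subunit. Psmc3ip read 16.0, 20.7, 19.8 and 19.9 CPM in CTRL and 32.9, 34.0, 36.2 and 34.5 CPM in BU. Every BU library was far above every CTRL library, and Psmc3ip rose 1.81-fold (0.86, SE 0.09, adjusted p = 2.5e-06). It lies on chromosome 11 from 101091823 to 101095436 on the minus strand (GRCm38), and 21.2% of its exons overlap Mlx on the opposite strand. Without a stated strand setting reads from the overlapping part cannot be assigned to either gene, while the rest of Psmc3ip is not affected by Mlx. Markers of meiotic cells, among which its protein acts, were 1 higher and 2 lower of 5, one of the latter being Psma8.

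Genes that serve the proteasome under other names were also called in both directions. Of 11 such genes 3 rose and 3 fell, all 6 by less than 1.5-fold, with a median of 0.03. The shares of all genes that rose and fell were 15.2% and 16.9%. Pomp, which matures the core, rose from 103.8 ± 1.73 to 140.6 ± 11.2 CPM (log2 fold change 0.43, SE 0.06, adjusted p = 6.2e-05). Adrm1, a ubiquitin receptor of the regulatory particle, rose from 17.5 ± 1.34 to 21.8 ± 1.74 CPM (0.31, SE 0.10, adjusted p = 0.022), and Zfand2a, an adaptor induced by protein stress, rose by 0.53 on this scale (SE 0.09, adjusted p = 0.00014). Usp14, which recycles ubiquitin at the proteasome, fell from 111 ± 3.01 to 90.5 ± 8.15 CPM (-0.31, SE 0.07, adjusted p = 0.0020). Zfand5, an activator of the particle, and Akirin2, which brings proteasomes into the nucleus, fell by 0.37 and 0.19 on the log2 scale.

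Of 14 shuttle and ubiquitin supply genes 3 rose (Ubqln2, Ubqln4 and Uba1) and 3 fell (Uchl1, Ubb and Ubqln1), with a median of 0.05. Among all genes 15.2% rose and 16.9% fell at an adjusted p under 0.05. Uchl1, a ubiquitin hydrolase abundant in spermatogonia, fell from 164 ± 12.3 to 110.01 ± 12.2 CPM (-0.58, SE 0.08, adjusted p = 1.6e-05), and Ubb, a polyubiquitin gene needed for germ cell development in mice, from 130.0 ± 8.49 to 105 ± 13.4 CPM (-0.32, SE 0.08, adjusted p = 0.0059). Among 9 genes of the p97 unfoldase Ubxn4 rose and Faf2 fell (median 0.01). Of 12 genes for the transcription of proteasome genes 2 rose and the other 10 did not pass (median 0.07). Nfe2l2 rose from 73.1 ± 1.65 to 107.6 ± 9.75 CPM (0.55, SE 0.07, adjusted p = 1.0e-05) and Nfya from 50.1 ± 2.70 to 66.8 ± 4.06 CPM (0.41, SE 0.07, adjusted p = 0.00023). Nfe2l1, the factor known to raise proteasome genes when the proteasome is inhibited, was at 136 ± 3.30 and 133.6 ± 5.31 CPM (-0.03, SE 0.05, adjusted p = 0.74).

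Medians of 3 other large complexes ran from -0.12 to 0.05. The CCT chaperonin had 1 rise and 1 fall among 8 genes (median -0.12), the COP9 signalosome had 1 rise among 9 (0.05), and the translation factor eIF3 had 6 falls among 14 (-0.08). Over all genes 15.2% rose and 16.9% fell, so the falls in eIF3 lay above the latter share. The COP9 signalosome and eIF3 are built from relatives of the lid subunits. The core median of -0.13 and the regulatory particle median of 0.13 were thus close in size to that of the CCT chaperonin. They were larger in size than those of the COP9 signalosome and eIF3, and no list was tested against another.

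**Figure D5:**
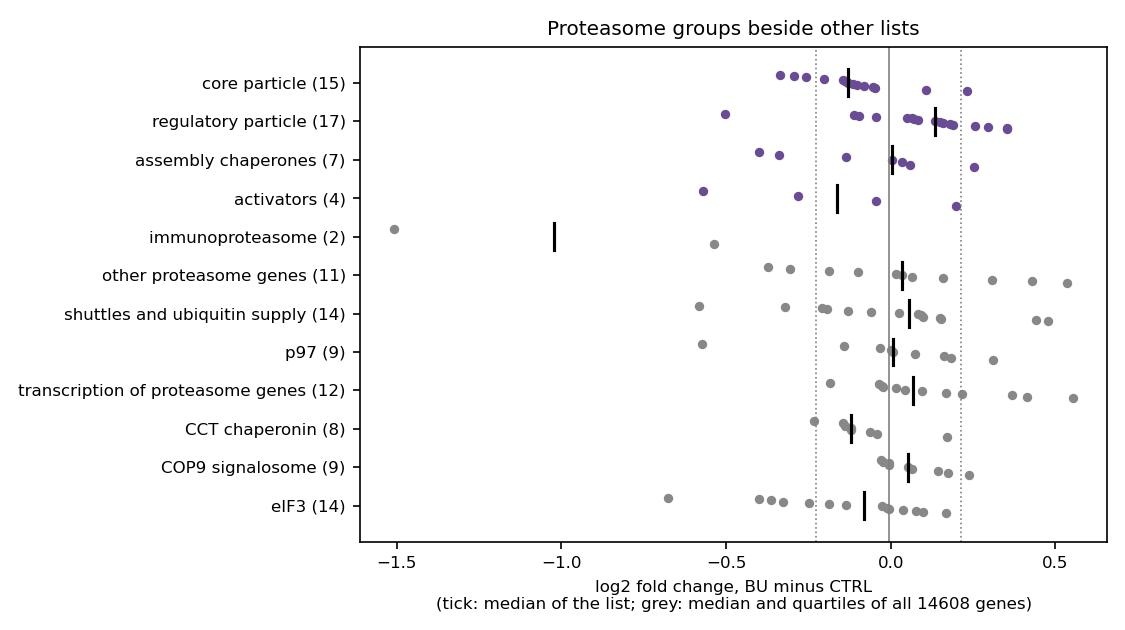
Log2 fold change, BU minus CTRL, of each tested gene (points) of the proteasome groups (purple) and of the comparison lists (grey), with the median of each list as a tick and the number of genes in brackets. Grey lines mark the median and quartiles of all 14608 genes (-0.01, -0.23 and 0.21), and of all the lists only the immunoproteasome, with 2 genes, has a median outside the quartiles. The quartiles are those of single genes, which vary more than medians of lists.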

How the data were processed

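A_undiff RNA was amplified as cDNA by the authors with the Nugen SPIA chemistry, sequenced as paired 100 bp reads and processed with RNAsik. Their processing notes list featureCounts, limma and edgeR with the build GRCm38, and the strand setting is not given in the sources used here. The deposited table holds raw counts per gene for 8 libraries, which were used for every result, with gene coordinates and lengths. It also holds 8 per-sample CPM columns, which were not used, and the authors' own comparison (log2 fold change, mean expression, p and false discovery rate), of which nothing was used. All 14608 genes listed have 1 CPM or more in 4 or more libraries, and lower genes were not analysed here.

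The comparison of BU with CTRL was fitted with limma-voom on the whole table (limma 3.58.1, edgeR 4.0.16, R 4.3.3), with filterByExpr, which removed 0 genes, TMM factors and the group as the only term. Adjusted p values are Benjamini-Hochberg values over 14608 genes from this fit, and log2 fold changes are BU minus CTRL. CPM are TMM-scaled and TPM use the deposited lengths. Member raw counts ran from 42 to 4511 per library, and standard errors (SE) of their log2 fold changes from 0.06 to 0.20. Per the study's methods each group had 4 mice, but no label links a library with its mouse, and p values therefore reflect only how much these libraries vary. Between libraries of a group the chi-square per degree of freedom was 7.12 or more, so no library was a second deposit of the same counts. This does not show that they came from separate animals. BU columns are numbered 2 to 5 and their labels otherwise, so they were assigned to the group only. The labels name no batch.

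The code was tested on simulated counts. The members, lists, tests and alternatives were chosen with earlier results of these data known, and lists are described by counts and medians without a test. Every member is accounted for. Values per library are given for the 12 members with the smallest adjusted p, those over a 1.5-fold change, the catalytic subunits, Psma8 and the activators, and for Psmd1, Psmg4 and Psmb10, added after their values were seen. Gene models of GENCODE M21 gave overlaps and shared 100-base stretches. As alternatives served DESeq2 1.42.0, the quasi-likelihood test of edgeR, the treat test of limma, further scalings, filters and thresholds, sample quality weights, removal of a length trend, and fits without single libraries or without BU 3 and BU 5. These 2 libraries were left out together because earlier work on these data had singled them out. Python 3.11.15 with pandas 2.3.3 and matplotlib 3.10.9 was used for sequences and plots.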

Additional observations from a re-analysis of the deposited data

Results flagged for a closer look

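Within each group of 4 libraries, 92 sets of member values were checked for a library far from the other 3, by Dixon's ratio of its gap to the whole range, with a critical value of 0.829. It was passed in 6 sets, and chance alone passes about 1 in 20. In CTRL, Psmc4 was high in CTRL 2 (35.1 CPM against 29.7 to 30.6, ratio 0.841), Psmd2 was high in CTRL 3 (155 CPM against 144.6 to 145, ratio 0.915) and Psmd6 was low in CTRL 1 (36.7 CPM against 41.1 to 41.8, ratio 0.873). Psmg4 was low in CTRL 4 (4.99 CPM against 8.03 to 8.56, ratio 0.853). In BU, Psmg3 was low in BU 5 (2.55 CPM against 3.22 to 3.35, ratio 0.841) and Psmd9 was high in BU 3 (16.5 CPM against 14.0 to 14.3, ratio 0.885). None of these 6 genes passed an adjusted p under 0.05 in limma-voom with all libraries.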

How the results depend on the processing

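No paired analysis was possible because the BU columns carry other numbers than the BU labels. Over the 46 genes and their alternatives, 848 of 873 results stayed on their side of the threshold, 21 calls were lost and 4 were gained. The sign turned in 19 results, all of 9 genes without a call. With an adjusted p under 0.01, 1401 of all genes were higher and 1590 lower, and 4 members were higher. With the treat test 171 genes were higher and 204 lower, with 0 members either way. Requiring 5 CPM left 604 genes higher by over 1.5-fold. Scaling by library totals gave 5 members higher. The members lower by over 1.5-fold were 2 with library totals, with quality weights and without BU 3 and BU 5, and 0 to 3 when single libraries were left out. Without BU 3 and BU 5, 4 members were lower, and medians were 0.042 for the beta ring, 0.18 for the lid, -0.28 for the activators and -0.026 for the core. Leaving out single libraries gave medians of 0.076 to 0.16 for the base subunits other than ATPases, 0.10 to 0.17 for the lid and -0.16 to -0.07 for the core. The cause was not tested. Other scalings moved the median of all genes by under 0.1. Psma2, Psma8 and Psmb6 lost their call without BU 3 and BU 5, Psmd6 gained one (BU then keeps 2 libraries), and Psmb7, Psmd1, Psme1 and Psme3 lost theirs under 2 to 7 alternatives. Where summed TPM is replaced by CPM, the log2 ratio of the regulatory particle is 0.09 and not -0.03, and that of the chaperones 0.01 and not -0.09. Depth and 4 libraries per group left 95% intervals that reach 0.12 to 0.42 to either side of a log2 fold change.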
